A study of Mus musculus with 31 samples.

Results

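The 9 genes described here are markers and effectors of microglia, the resident macrophages of the brain, and the complement C1q genes that microglia express. The members were chosen by name: Cx3cr1, P2ry12, Tmem119, Csf1r, Trem2, Ctss, C1qa, C1qb and C1qc, 9 of the 48709 genes in the count tables. All 9 carried a GENCODE symbol and passed the filter on low counts.

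RNA was taken from punches of the basolateral amygdala (BLA), left and right pooled for each mouse, and sequenced by QuantSeq, a method that reads the 3′ ends of polyadenylated transcripts. The 31 mice were CYFIP1 OE animals, which carry a bacterial artificial chromosome with the human CYFIP1 gene, and WT littermates, labelled as controls, all on a C57BL/6N background. Each transgenic line came from a single founder injected with the transgene, and the labels number the lines 1 and 3. The line labelled 1 gave 8 WT mice aged 59 to 61 days (4 males, 4 females) and 7 CYFIP1 OE mice aged 59 to 77 days (3 males, 4 females). The line labelled 3 gave 8 WT mice aged 58 to 60 days and 8 CYFIP1 OE mice aged 58 to 64 days, each with 4 males and 4 females. The 4 mice aged 77 days were all CYFIP1 OE mice of line 1, and 7 of the 8 WT mice of line 1 had names with the same prefix.

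Microglia survey the tissue through purinergic and chemokine receptors, depend on colony-stimulating factor signalling to survive, and clear debris and synapses. C1q is the molecule that starts the classical complement pathway, and it is assembled from the A, B and C chains encoded by C1qa, C1qb and C1qc. In the brain C1q is made mainly by microglia and can tag synapses for removal.

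RefSeq promoter windows, 250 bases before to 50 bases after the start of the gene on GRCm38.p6, were matched for 6 of the 9 members. Windows are printed for the C1q neighbours C1qb and C1qc and for Ctss, because over the 31 mice C1qc had a correlation of r = 0.68 with Ctss and of 0.24 with its neighbour C1qb. Without 1 library that stood apart (CYFIP1 OE line 3 mouse 1, described below) these were 0.54 and 0.38. Capitals mark GAGGAA or its reverse complement TTCCTC, the core of the purine-rich box that PU.1, the master transcription factor of microglia and macrophages, is known to bind. The sequences are given on the strand of the gene, 5′ to 3′.
C1qb, chr4:136886151-136886450, minus strand: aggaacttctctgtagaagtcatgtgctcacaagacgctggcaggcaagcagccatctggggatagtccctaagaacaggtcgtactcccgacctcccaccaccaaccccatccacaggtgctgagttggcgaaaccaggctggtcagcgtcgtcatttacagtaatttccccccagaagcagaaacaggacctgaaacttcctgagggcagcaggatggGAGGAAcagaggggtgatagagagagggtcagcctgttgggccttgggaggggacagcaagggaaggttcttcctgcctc
C1qc, chr4:136892865-136893164, minus strand: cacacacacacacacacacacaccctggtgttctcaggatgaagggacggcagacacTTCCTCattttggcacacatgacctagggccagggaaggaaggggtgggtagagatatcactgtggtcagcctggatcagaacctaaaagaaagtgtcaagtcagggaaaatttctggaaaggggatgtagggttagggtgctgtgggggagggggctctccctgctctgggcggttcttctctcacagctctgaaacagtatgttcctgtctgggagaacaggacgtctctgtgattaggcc
Ctss, chr3:95526536-95526835, plus strand: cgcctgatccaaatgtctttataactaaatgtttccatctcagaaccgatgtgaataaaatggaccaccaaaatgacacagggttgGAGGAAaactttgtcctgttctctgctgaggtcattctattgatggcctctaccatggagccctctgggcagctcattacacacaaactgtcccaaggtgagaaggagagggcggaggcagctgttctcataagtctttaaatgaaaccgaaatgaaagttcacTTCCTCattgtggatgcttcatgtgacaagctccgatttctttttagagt

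The 6 bases GAGGAA, searched on both strands, occurred in the windows of 4 of these 6 members (Ctss, C1qb, C1qc and Trem2) and in 28.3% of all 32851 RefSeq promoter windows of this length. The longer GAGGAAGT, which contains those 6 bases, occurred in C1qc and Ctss and in 3.2% of all windows. P2ry12, which had r = 0.66 with C1qc, had a matched window with 0 matches to GAGGAA. These matches describe letters in a window and are not evidence of binding, and their relation to the correlations was not tested.

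The genes lie on 6 chromosomes of GRCm38. The C1q genes sit side by side on chromosome 4, all transcribed from the minus strand, within 18675 bases that hold no other annotated gene: C1qb at 136880129 to 136886187, C1qc at 136889804 to 136893065 and C1qa at 136895917 to 136898803. Chromosome 3 holds P2ry12 (59216272 to 59262871, minus strand) and Ctss (95526786 to 95556403, plus strand). Tmem119 is on chromosome 5 (113793729 to 113800516, minus strand), Cx3cr1 on chromosome 9 (119901616 to 120069879, minus strand), Trem2 on chromosome 17 (48346401 to 48354147, plus strand) and Csf1r on chromosome 18 (61100598 to 61132149, plus strand). Other annotated genes overlap Cx3cr1 (9 genes), Csf1r (2 genes), P2ry12 (1 gene, Med12l on the opposite strand) and Ctss (1 pseudogene), and reads in these overlaps may have been assigned to either gene. C1qa, C1qb, C1qc, Tmem119 and Trem2 overlap none.

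The gene counts of a mouse summed to 5286708 to 8685308, and 17428 genes passed the filter (10 or more reads in 20% or more of the mice). One library stood apart: CYFIP1 OE line 3 mouse 1, a male, had a standardized connectivity (how strongly its profile correlated with those of the other mice, as a Z-score) of -4.74, and the next lowest Z was -1.18. Results that rest on this mouse are given with and without it. Levels are in CPM, read counts scaled to library size with TMM factors. Mouse Cyfip1 had 33.5 ± 4.48 CPM in the WT group (SD, n = 16) and 33.0 ± 3.66 CPM in the CYFIP1 OE group (SD, n = 15). The human transgene was not analysed here.

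All 9 members were detected in all 31 mice. Because QuantSeq takes its reads from the 3′ end of a transcript, CPM was compared between genes without scaling by length. Cx3cr1, the receptor for the neuronal chemokine fractalkine, had the highest level, with 43.2 CPM in the lowest mouse, a median of 65.5 and 150 CPM in the highest. Ctss, which encodes the lysosomal protease cathepsin S, had 27.1 to 76.2 CPM (median 53.3), and Csf1r, the receptor for colony-stimulating factor 1 and interleukin 34, had 32.1 to 75.4 CPM (median 50.9). The highest and lowest mice of these 3 genes differed by 2.35-fold to 3.47-fold.

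The C1q chains followed, with medians of 25.2 CPM for C1qc (10.9 to 41.6), 22.8 CPM for C1qa (14.9 to 51.6) and 19.2 CPM for C1qb (13.9 to 49.96). P2ry12, the ADP receptor that guides microglial processes to injury, had 8.59 to 31.4 CPM (median 17.3), and Tmem119, a transmembrane protein used to tell microglia from blood-derived macrophages, had 4.40 to 25.0 CPM (median 11.6). Trem2, a receptor for lipids and lipoproteins, was lowest, with 2.02 to 9.86 CPM (median 5.35).

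The order of the levels had clear steps in places. Csf1r was above C1qc in 31 of 31 mice, P2ry12 was above Tmem119 in 27, and Tmem119 was above Trem2 in 29. The ranges of the other neighbours overlapped and their order turned in 8 to 13 of the 31 mice, with no test made: Cx3cr1 exceeded Ctss in 22 mice, Ctss exceeded Csf1r in 23, C1qc exceeded C1qa in 18, C1qa exceeded C1qb in 20, and C1qb exceeded P2ry12 in 20.

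The SD over mice was 18.3% of the mean for Csf1r, 21.2% for Ctss, 26.6% for C1qc, 29.1% for Cx3cr1, 29.3% for P2ry12, 30.4% for C1qa, 35.5% for C1qb, 37.0% for Trem2 and 40.1% for Tmem119. Counting error alone would give 4.58% for Cx3cr1 and 16.9% for Trem2, so for every member the spread over mice was larger than the counting error. Among the 8681 genes with a mean CPM in the range of the members the median was 26.6%.

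**Figure D1:**
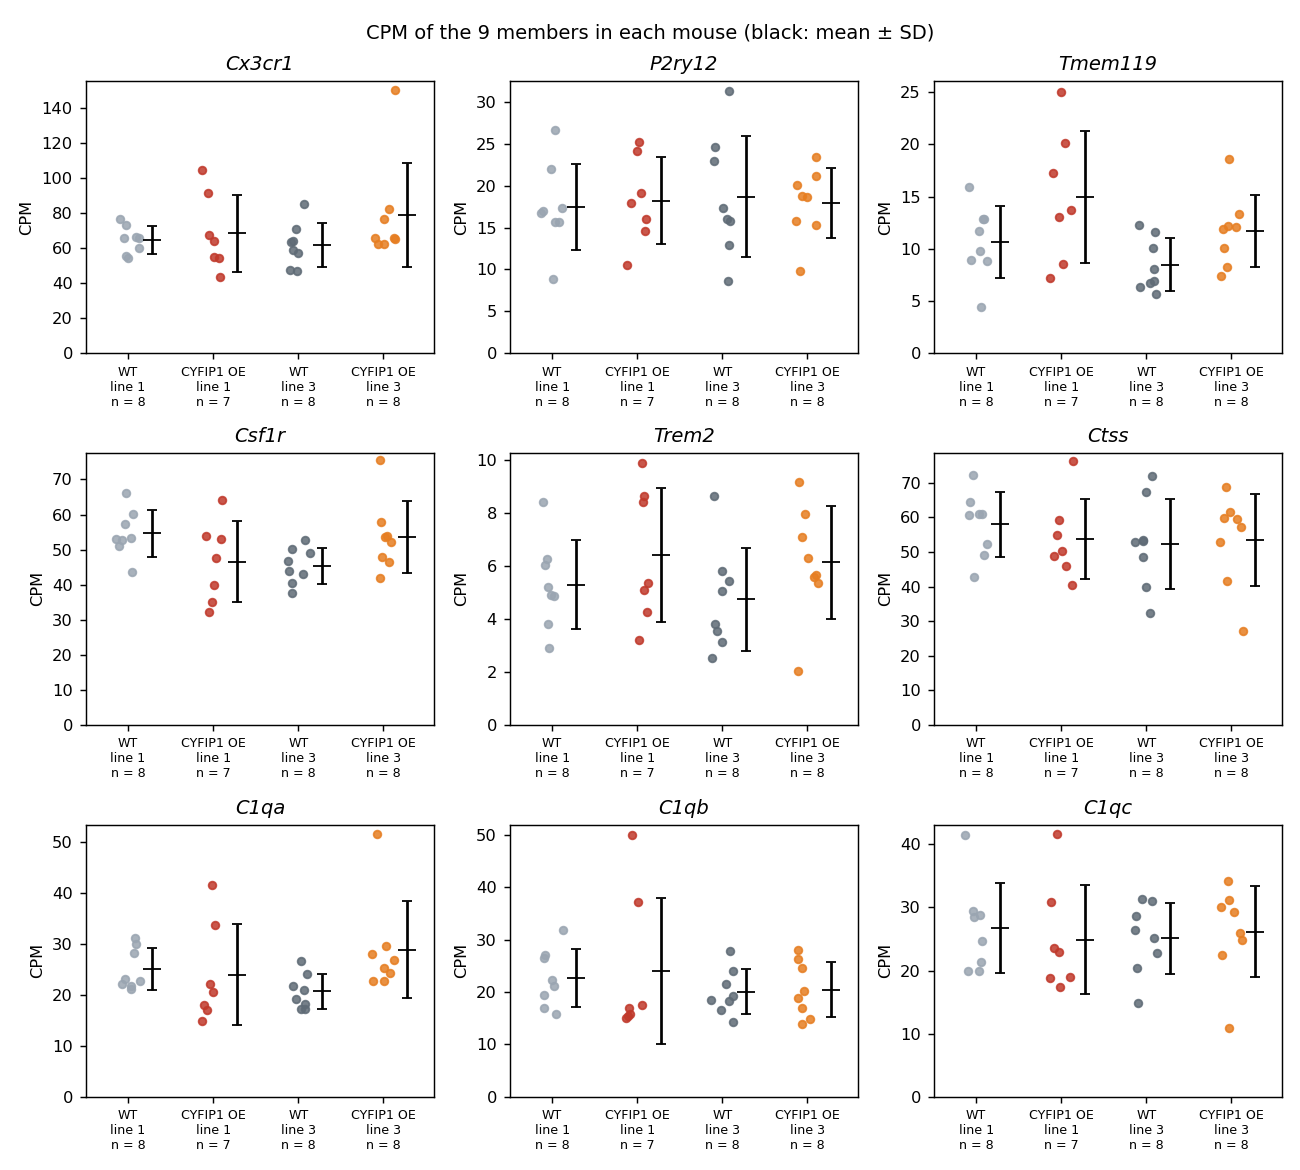
CPM of each member (vertical axis, from 0) in each of the 31 mice, by genotype and line, with black bars for the mean ± SD of each group. The groups overlap for all 9 genes, and CYFIP1 OE line 3 mouse 1 is the single high point of Cx3cr1 (150 CPM) and C1qa (51.6 CPM).

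The first comparison asked whether the members differed between CYFIP1 OE and WT mice over both lines, with sex and line as covariates in edgeR's quasi-likelihood test. With all 31 mice, 0 of 9 members had an unadjusted p under 0.005, the threshold of the study, against 0.293% of all 17428 genes. DESeq2 also called 0 members, and 81 of 17404 genes. Of the members 1 had an unadjusted p under 0.05, against 4.3% of all genes, and at an adjusted p under 0.05 the edgeR calls were 0 of 9 members and 0.0% of all genes. The paper removed samples with a connectivity Z under -2 and held principal components of sequencing statistics as covariates. The fit here did neither. Without the mouse of connectivity Z under -2, Tmem119 came under the threshold of the study in edgeR (unadjusted p 0.00442). In that fit 57 of all 17719 genes were under it. In BLA tissue, a different number of microglia and a different amount of RNA per cell cannot be told apart.

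Tmem119 had the largest difference. It had 4.40, 9.34 and 15.9 CPM in the lowest, median and highest WT mice, and 7.20, 12.2 and 25.0 CPM in those of the CYFIP1 OE mice. The groups overlapped, but 11 of 15 CYFIP1 OE animals exceeded the WT mean and 4 exceeded the highest WT mouse. Its log2 fold change was 0.48 (standard error 0.17, 95% interval 0.14 to 0.83), with an unadjusted p of 0.00727 and an adjusted p of 0.999. Without CYFIP1 OE line 3 mouse 1 the log2 fold change was 0.52, with an unadjusted p of 0.00442, under the threshold of the study. With 5 surrogate variables it was 0.30 (unadjusted p 0.0447), and with name prefix as a term it was 0.50 (unadjusted p 0.0562). In line 1 only CYFIP1 OE mouse 1 and WT mouse 8 shared a name prefix across genotypes. The fit with name prefix thus drew mostly on line 3.

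For Trem2 and the remaining homeostatic receptors the intervals included 0. Trem2 had a log2 fold change of 0.31 (interval -0.10 to 0.72), and 12 of 15 CYFIP1 OE animals exceeded the WT mean. With the levels of myelin and striatal markers as covariates it was 0.41 (unadjusted p 0.0334 in edgeR). Of 10 other settings, leave-one-out fits aside, this was the 1 with a p under 0.05. Cx3cr1 had 46.9, 63.7 and 85.3 CPM in the lowest, median and highest WT mice and 43.2, 65.9 and 150 CPM in the CYFIP1 OE mice. Its log2 fold change was 0.22 (interval -0.04 to 0.48). The medians were close, and without CYFIP1 OE line 3 mouse 1 its log2 fold change was 0.11. Csf1r (log2 fold change 0.01, interval -0.19 to 0.22) and P2ry12 (-0.02, interval -0.34 to 0.29) were centred near 0.

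The effectors of debris and synapse clearance had intervals that spanned 0. C1qa had a log2 fold change of 0.22 (interval -0.07 to 0.50), which was 0.12 without CYFIP1 OE line 3 mouse 1. C1qb had 0.03 (interval -0.28 to 0.34), C1qc -0.04 (interval -0.33 to 0.24) and Ctss -0.05 (interval -0.28 to 0.18). For these 4 genes the intervals leave room for differences of up to 1.42-fold at most. The median over the 9 members was 0.03, beside -0.0053 over all genes tested.

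**Figure D2:**
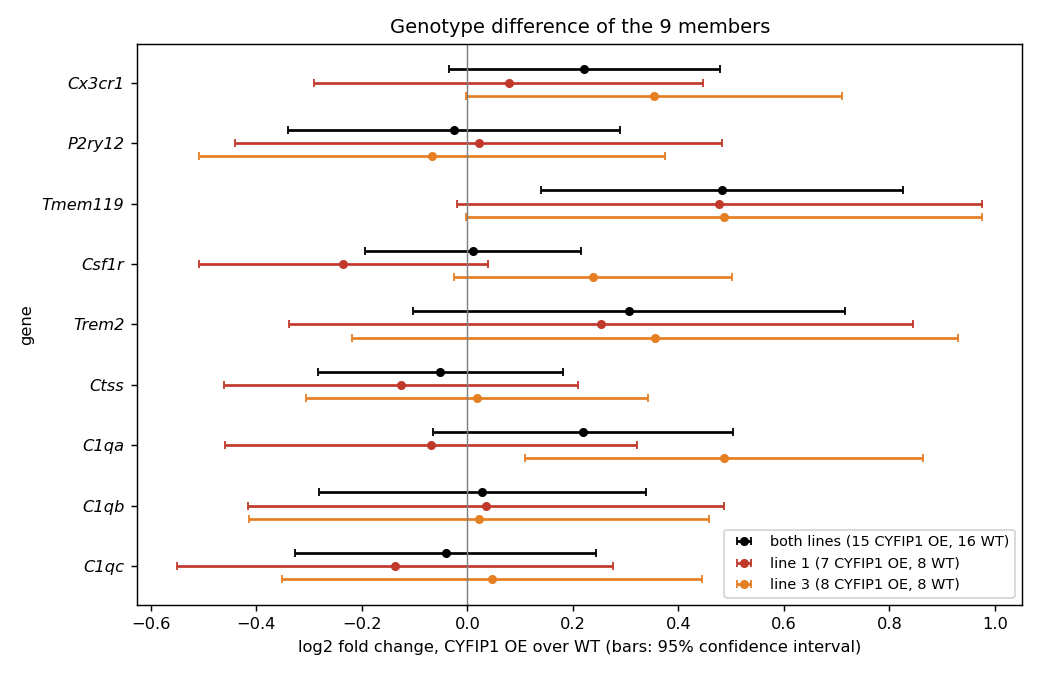
Log2 fold change of CYFIP1 OE over WT mice (horizontal axis, 0 is no difference) for each member over both lines, in line 1 and in line 3, with 95% confidence intervals. The interval excludes 0 for Tmem119 over both lines (0.14 to 0.83) and for C1qa in line 3 (0.11 to 0.86).

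The lines were then taken apart in 1 model with a term for each combination of line and genotype and for sex. In line 1 genotype can hardly be told apart from name prefix, and this limit also holds for the difference between the lines. In line 1, 0 of 9 members had an unadjusted p under 0.005, against 0.35% of all genes, and 0 had one under 0.05, against 3.96%. In line 3 the counts were 0 of 9 against 0.93%, and 1 of 9 against 7.93%. DESeq2 called 0 members at 0.005 in both lines, and of 17410 genes it called 89 in line 1 and 234 in line 3. The median log2 fold change of the members was 0.02 in line 1 (5 of 9 positive) and 0.24 in line 3 (8 of 9 positive), beside 0.0021 and -0.019 over all genes. In line 3 the median was 0.15 without CYFIP1 OE line 3 mouse 1 (8 of 9 positive) and -0.06 with 5 surrogate variables (4 of 9 positive).

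C1qa was the member with the smallest p in line 3. It had 17.2, 20.1 and 26.7 CPM in the lowest, median and highest WT mice of that line, and 22.8, 26.1 and 51.6 CPM in its CYFIP1 OE mice. Each of the 8 CYFIP1 OE animals exceeded the WT mean and 4 exceeded the highest WT mouse, although the groups overlapped. Its log2 fold change was 0.49 (standard error 0.19, interval 0.11 to 0.86), with an unadjusted p of 0.0130 and an adjusted p of 0.525. Without CYFIP1 OE line 3 mouse 1 the log2 fold change was 0.31 with an unadjusted p of 0.0668, and without the 4 line 3 mice of its name prefix it was 0.22 with an unadjusted p of 0.251. With 5 surrogate variables it was 0.08 with an unadjusted p of 0.548.

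Cx3cr1 in line 3 rested on the same mouse. It had 46.9, 61.3 and 85.3 CPM in the lowest, median and highest WT mice and 62.2, 65.9 and 150 CPM in the CYFIP1 OE mice, and all of the latter exceeded the mean of the former. Its log2 fold change was 0.35 (interval -0.0018 to 0.71, unadjusted p 0.0511), and 0.15 without CYFIP1 OE line 3 mouse 1 (unadjusted p 0.300).

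In line 1, C1qa had 21.2, 22.9 and 31.3 CPM in the lowest, median and highest WT mice and 14.9, 20.6 and 41.6 CPM in the CYFIP1 OE mice. The CYFIP1 OE mice thus lay on both sides of the WT range, 2 of 7 above the highest WT mouse, and the log2 fold change was -0.07 (interval -0.46 to 0.32). For C1qb the same 2 mice, CYFIP1 OE line 1 mice 2 and 7, were above the WT range of line 1, and they were also the 2 above it for Cx3cr1. The CYFIP1 OE values of C1qb were 15.0, 16.9 and 49.96 CPM at the lowest, median and highest, beside 15.9, 21.7 and 31.9 CPM in WT mice. Its log2 fold change was 0.03 in line 1 and 0.02 in line 3.

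Csf1r pointed in opposite directions in the lines. In line 1 it had 43.5, 53.1 and 66.1 CPM in the lowest, median and highest WT mice and 32.1, 47.5 and 64.3 CPM in CYFIP1 OE mice, and 1 of 7 CYFIP1 OE animals exceeded the WT mean. In line 3 it had 37.7, 45.2 and 52.9 CPM in WT mice and 41.8, 52.8 and 75.4 CPM in CYFIP1 OE mice, and 7 of 8 exceeded the WT mean. The groups overlapped in both lines. The log2 fold changes were -0.24 (interval -0.51 to 0.04) in line 1 and 0.24 (interval -0.03 to 0.50) in line 3. Without CYFIP1 OE line 3 mouse 1, which had the highest Csf1r of all mice, the line 3 value was 0.15 (unadjusted p 0.228).

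Tmem119 did not point in opposite directions. It had 4.40, 10.8 and 15.9 CPM in the lowest, median and highest WT mice of line 1 and 7.20, 13.7 and 25.0 CPM in the CYFIP1 OE mice. In line 3 it had 5.69, 7.51 and 12.2 CPM in WT mice and 7.35, 11.9 and 18.6 CPM in CYFIP1 OE mice. The log2 fold change was 0.48 in line 1 (interval -0.02 to 0.98) and 0.49 in line 3 (interval -0.0022 to 0.98). The remaining members had log2 fold changes between -0.14 (C1qc) and 0.25 (Trem2) in line 1, and between -0.07 (P2ry12) and 0.36 (Trem2) in line 3.

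The difference between the lines was tested as an interaction, the genotype difference of line 3 minus that of line 1. Of the 9 members 0 had an unadjusted p under 0.005, against 0.843% of all genes, and 2 had one under 0.05, against 8.1%. Without CYFIP1 OE line 3 mouse 1 the number of all genes under 0.005 was 348 of 17719, where it was 147 of 17428 with that mouse. DESeq2 called 0 members and 214 of 17410 genes at 0.005. The difference was 0.47 for Csf1r (standard error 0.19, unadjusted p 0.0162, adjusted p 0.550) and 0.56 for C1qa (standard error 0.27, unadjusted p 0.0456, adjusted p 0.605). For Tmem119 it was 0.0091, with an interval of -0.67 to 0.69. Leaving out CYFIP1 OE line 1 mouse 2, which had the highest Tmem119 and C1qb, gave 0.56 for Csf1r with an unadjusted p of 0.00345, and 0.73 for C1qa with an unadjusted p of 0.00534. Without CYFIP1 OE line 3 mouse 1 the values were 0.39 for Csf1r and 0.40 for C1qa, and with 5 surrogate variables both were 0.13.

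Markers of the tissue in the punch were read in the same contrast. The 4 tested of 5 striatal projection neuron markers (Drd1, Ppp1r1b, Rgs9 and Adora2a) had a median log2 genotype difference of -0.77 in line 1 and 0.73 in line 3, and all 4 had an unadjusted p under 0.05 for the difference of 1.48. The 5 markers of BLA principal neurons had medians of 0.60 in line 1 (5 of 5 positive) and -0.48 in line 3 (1 of 5 positive), and a median difference of -1.08 (0 of 5 positive), with 1 of 5 at an unadjusted p under 0.05. The summed striatal level ranged from 151 to 2639 CPM in WT mice and from 159 to 2958 CPM in CYFIP1 OE mice. With the myelin and striatal levels as covariates the interaction was 0.43 for Csf1r (unadjusted p 0.0345) and 0.56 for C1qa (unadjusted p 0.0557). The interaction of P2ry12 was -0.09 without these covariates (unadjusted p 0.778) and -0.58 with them (unadjusted p 0.0344), and its line 1 difference went from 0.02 to 0.39 (unadjusted p 0.0465). With 5 surrogate variables the interaction of P2ry12 was -0.59 (unadjusted p 0.0447).

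WT mice of the lines were compared to see how far the lines differed without the transgene. Here DESeq2 called 0 members and 106 of 17410 genes at 0.005. In edgeR 0 of 9 members had an unadjusted p under 0.005, against 0.373% of all genes, and 1 had one under 0.05, against 4.41%. That member was Csf1r, with a log2 difference of -0.27 (line 3 minus line 1, standard error 0.13, unadjusted p 0.0474, adjusted p 1.00), and none of the 8 WT mice of line 3 was above the mean of line 1. Of the 9 members, 8 had lower fitted levels in line 3, and the median was -0.15 beside 0.0091 over all genes. Line and name prefix cannot be told apart in the WT mice of line 1.

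Females and males were compared in the same model as the genotypes. The fitted difference was positive, higher in the 16 females than in the 15 males, for 9 of 9 members, with a median of 0.17 beside -0.016 over all genes. None had an unadjusted p under 0.005 in edgeR or in DESeq2, against 0.436% of all genes, and 0 had one under 0.05, against 4.62%. At an adjusted p under 0.05 the counts were 0 of 9 members and 0.0631% of all genes. The largest differences were those of C1qb (0.30, interval -0.01 to 0.61) and Tmem119 (0.27, interval -0.08 to 0.61). Of the 30 other microglial genes 21 had a positive sex difference, with a median of 0.086 and a range from -0.51 to 0.60. Before adjustment 1 of the 30 was under 0.005 in edgeR, against 0.436% of all genes. That gene, P2ry13, a purinergic receptor, had 7.49 ± 1.73 CPM in females (SD, n = 16) and 4.95 ± 1.69 CPM in males (SD, n = 15), with a log2 difference of 0.60 and adjusted p 0.644 in edgeR.

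Co-variation was measured as Pearson's r of log2 CPM over the 31 mice for the 36 pairs of members, with permutation p-values adjusted over the 36. The median r was 0.29, 32 of 36 pairs were positive and 10 had an adjusted permutation p under 0.05 (10 by Spearman's rho, not all of them the same pairs). Over all tested genes, the 95th percentile of r with a member was 0.34 (Trem2) to 0.52 (Ctss). Among 17427 other genes, the closest fellow member ranked between 7 (C1qc for P2ry12) and 318 (C1qb for Tmem119). Many genes outside the list thus followed a member more closely than its fellow members did. The pairs fell into sets that were named only after the correlations were seen. Cx3cr1, C1qa, Csf1r and C1qb formed one set, with r between 0.48 and 0.81, and P2ry12, C1qc and Ctss formed the other, with r between 0.45 and 0.68. Between the sets the 12 pairs had a median r of 0.05, and the lowest was that of Cx3cr1 with Ctss (-0.36). Without CYFIP1 OE line 3 mouse 1 that pair had r = -0.04. The r was then 0.38 to 0.72 within the first set, 0.35 to 0.60 within the other and -0.04 to 0.47 between them. Without that mouse the ranges thus overlapped.

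C1qa and Cx3cr1 were the closest pair, at r = 0.81 (adjusted permutation p 0.00018) and Spearman's rho = 0.67 (adjusted permutation p 0.00162). The r was 0.76 in line 1, 0.85 in line 3 and 0.63 without the 2 mice farthest from the median of Cx3cr1. C1qa with Csf1r had r = 0.69 (adjusted permutation p 0.00018) and rho = 0.61 (adjusted permutation p 0.0023), and r = 0.58 without the 2 mice farthest from the median of Csf1r. In the other set, Ctss with C1qc had r = 0.68 (adjusted permutation p 0.00054) and rho = 0.62 (adjusted permutation p 0.0023), with r = 0.65 in line 1, 0.71 in line 3 and 0.68 without the 2 farthest mice. P2ry12 with C1qc had r = 0.66 (adjusted permutation p 0.00048) and rho = 0.67 (adjusted permutation p 0.00162).

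The chains of C1q, which are assembled into 1 protein, did not follow each other equally. C1qa with C1qb had r = 0.62 (adjusted permutation p 0.0015) and rho = 0.54 (adjusted permutation p 0.0139), and r = 0.52 without the 2 mice farthest from the median of C1qa. C1qb with C1qc had r = 0.24 (adjusted permutation p 0.297) and rho = 0.24 (adjusted permutation p 0.300), and its r was 0.38 without CYFIP1 OE line 3 mouse 1 and 0.04 without the 2 mice farthest from the median of C1qb. C1qa with C1qc had r = 0.04 (adjusted permutation p 0.882) and rho = 0.28 (adjusted permutation p 0.206).

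The low value of C1qa with C1qc rested on 1 mouse. Its r was -0.43 in line 3. In line 1 the r of this pair was 0.57, and without CYFIP1 OE line 3 mouse 1 it was 0.47 over 30 mice. That mouse had the highest Cx3cr1 (150 CPM, 2.29 times the median), C1qa (51.6 CPM, 2.27 times) and Csf1r (75.4 CPM, 1.48 times) of all 31, and the lowest C1qc (10.9 CPM, 0.434 times) and Ctss (27.1 CPM, 0.507 times). Its C1qa made up 58.1% of its summed C1q CPM and its C1qc 12.3%, beside medians of 33.2% and 36.6% over all mice. Without it the 12 pairs between the sets had a median r of 0.35, and the median over all 36 pairs was 0.38.

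**Figure D3:**
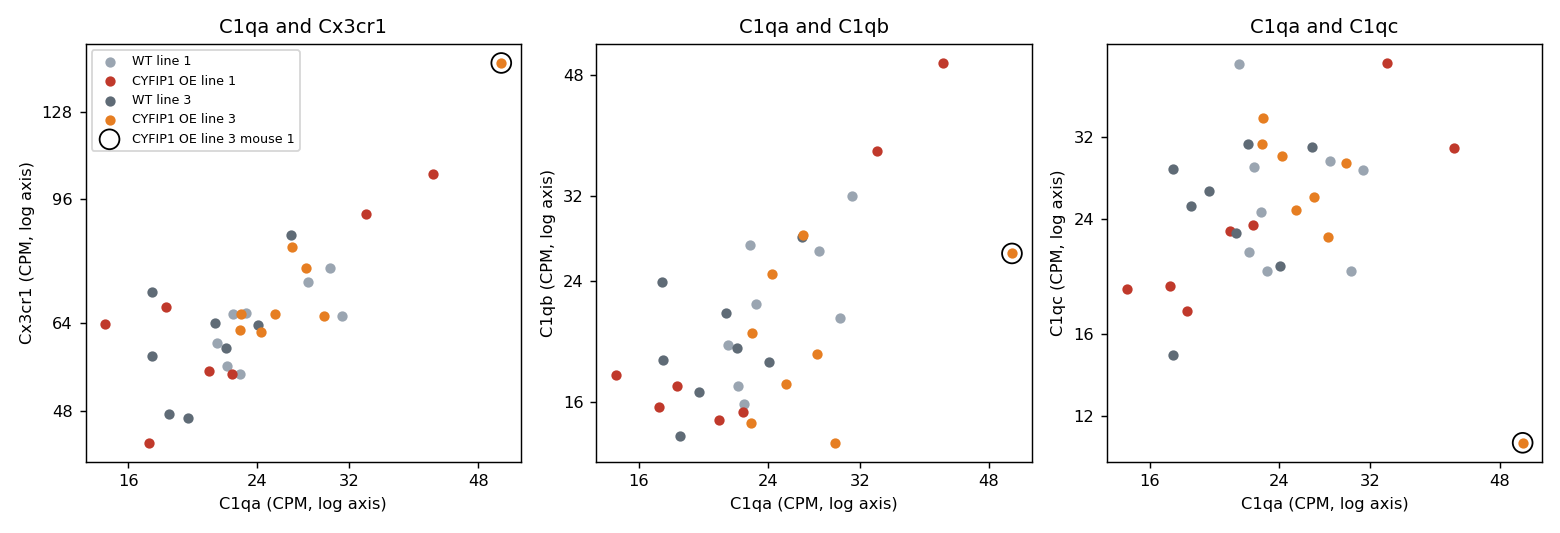
C1qa (horizontal log axis, CPM) against Cx3cr1, C1qb and C1qc (vertical log axes, CPM) in the 31 mice, coloured by group, with CYFIP1 OE line 3 mouse 1 circled. C1qa and Cx3cr1 vary together (r = 0.81), while in the panel of C1qc the circled mouse lies at the lower right, at 51.6 CPM of C1qa and 10.9 CPM of C1qc.

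GC content and length of the transcripts were read beside these sets, and neither divided the genes exactly as the sets did. The last 300 bases, the part QuantSeq reads, had a GC content of 60.0% in C1qa, 57.0% in Csf1r, 56.3% in Tmem119, 52.7% in C1qb, 52.0% in Trem2, 49.7% in C1qc, 45.3% in Cx3cr1, 34.0% in Ctss and 30.3% in P2ry12, beside a median of 42.3% over the tested genes. The transcripts of C1qa (1040 bases), C1qb (1088), Trem2 (1088), C1qc (1203) and Ctss (1355) were short beside the median of 2841 bases, and those of Cx3cr1 (4493) and Csf1r (4701) were long. For each mouse a GC gradient and a length gradient were fitted over 8421 other genes, as the slope of log2 CPM (minus the mean over mice) on the GC content of the last 300 bases and on log2 transcript length.

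The GC gradient was highest in CYFIP1 OE line 1 mouse 2 (0.19 log2 units per 10 points of GC) and CYFIP1 OE line 3 mouse 1 (0.18), and the latter also had the highest length gradient (0.15 log2 units per doubling of length). Of 18 relations of a member with a gradient, 8 had an adjusted permutation p under 0.05, 5 with the GC gradient and 3 with the length gradient. The share of all genes with such a relation was not computed, so this count does not set the members apart from other genes. C1qa had r = 0.70 with the GC gradient (adjusted permutation p 0.00036, rho = 0.49 with adjusted permutation p 0.0293), with r = 0.68 in line 1 and 0.74 in line 3. Without the 2 mice farthest out its r was 0.40. For Cx3cr1 the r of 0.64 (adjusted permutation p 0.00166) was 0.23 without the same 2 mice, and rho was 0.32 (adjusted permutation p 0.162), so that relation rested on those 2 mice. Csf1r, Ctss and C1qb also had an adjusted permutation p under 0.05 for r, but their r of 0.60, -0.44 and 0.42 with the GC gradient was 0.39, -0.24 and 0.06 without them, and their rho had adjusted permutation p-values of 0.106, 0.116 and 0.490. P2ry12 and C1qc had r = -0.25 and -0.26 (adjusted permutation p 0.212 and 0.208), so over all mice the sign of r differed between the sets. Without those 2 mice these r were -0.18 and -0.11, and in line 1 that of C1qc was 0.12.

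C1qc followed the length gradient, at r = -0.75 (adjusted permutation p 0.00036) and rho = -0.68 (adjusted permutation p 0.00054), with r = -0.70 in line 1, -0.83 in line 3 and -0.62 without the 2 mice farthest out. Ctss did so at r = -0.69 (adjusted permutation p 0.00036, rho = -0.63 with adjusted permutation p 0.00126) and P2ry12 at r = -0.55 (adjusted permutation p 0.00528, rho = -0.64 with adjusted permutation p 0.00126). Their r without the 2 mice farthest out was -0.58 and -0.47. Members of the set with Cx3cr1 and C1qa had r between -0.21 (C1qb) and 0.29 (Cx3cr1) with the length gradient. Without the 2 mice farthest out, CYFIP1 OE line 3 mouse 1 and WT line 3 mouse 4, r was -0.43 for Csf1r, -0.40 for C1qb, -0.20 for C1qa and -0.17 for Cx3cr1, and in line 1 it was -0.41, -0.44, -0.41 and -0.39. The contrast between the sets in this gradient was thus smaller without those 2 mice and within line 1.

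**Figure D4:**
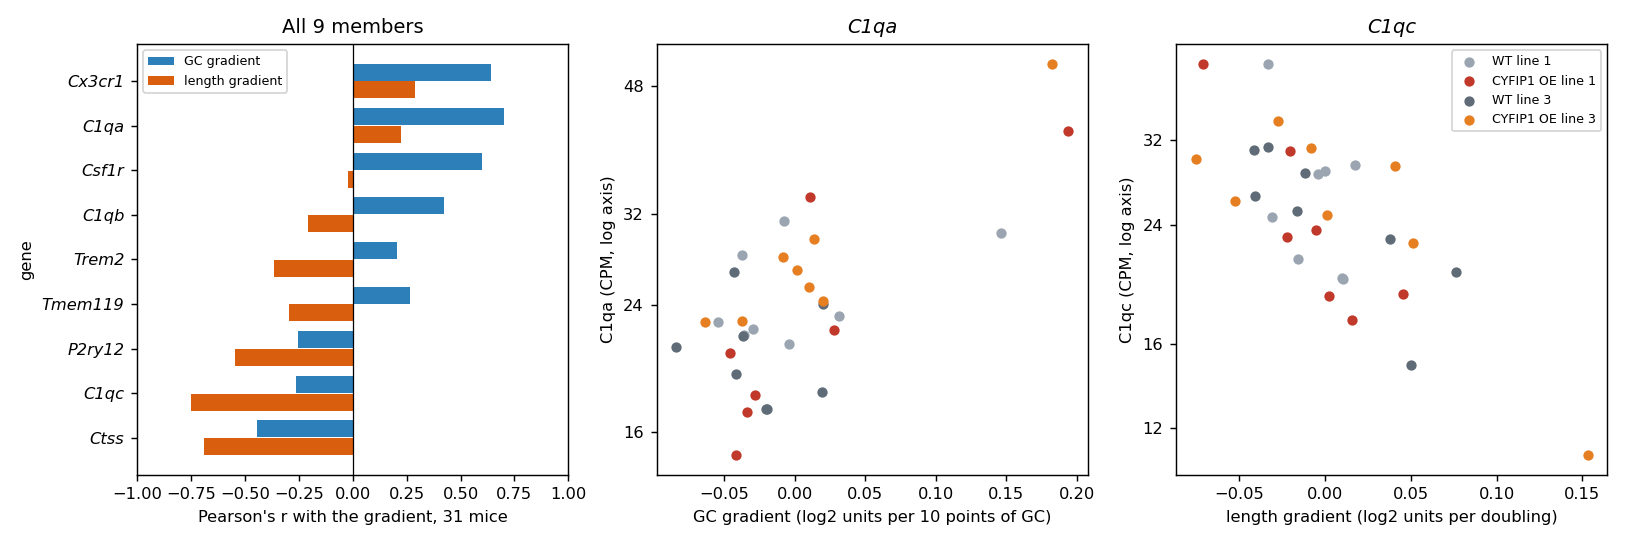
Left, Pearson's r of each member's log2 CPM with the GC gradient (blue bars) and the length gradient (orange bars) over 31 mice. Centre and right, C1qa against the GC gradient and C1qc against the length gradient, with CPM on log axes and 1 point per mouse, where C1qa has r = 0.70 and C1qc has r = -0.75.

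After both gradients were removed by linear regression, the median r over the 36 pairs was 0.25. The r of C1qa with C1qc was then 0.49, that of C1qa with Cx3cr1 was 0.66 and that of Ctss with C1qc was 0.34. Pairs between the sets then had a median r of 0.28, beside 0.52 within the first set and 0.34 within the second. With no gradient removed but without CYFIP1 OE line 3 mouse 1, C1qa with C1qc had r = 0.47 and the pairs between the sets a median of 0.35. That mouse had high values of both gradients (0.18 and 0.15). The gradients were not removed without it, so its part in these changes cannot be told apart from theirs. With the gradients as covariates, the log2 genotype difference of Tmem119 was 0.43 (unadjusted p 0.0137) and that of C1qa in line 3 was 0.27 (unadjusted p 0.0621). Of the 9 sex differences, those of P2ry12, Trem2, Ctss and C1qc turned negative under these covariates, at -0.014, -0.056, -0.0083 and -0.083, where the length gradient had a mean of -0.018 in females and 0.020 in males. The part of the gradients in these differences was not tested beyond these fits.

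**Figure D5:**
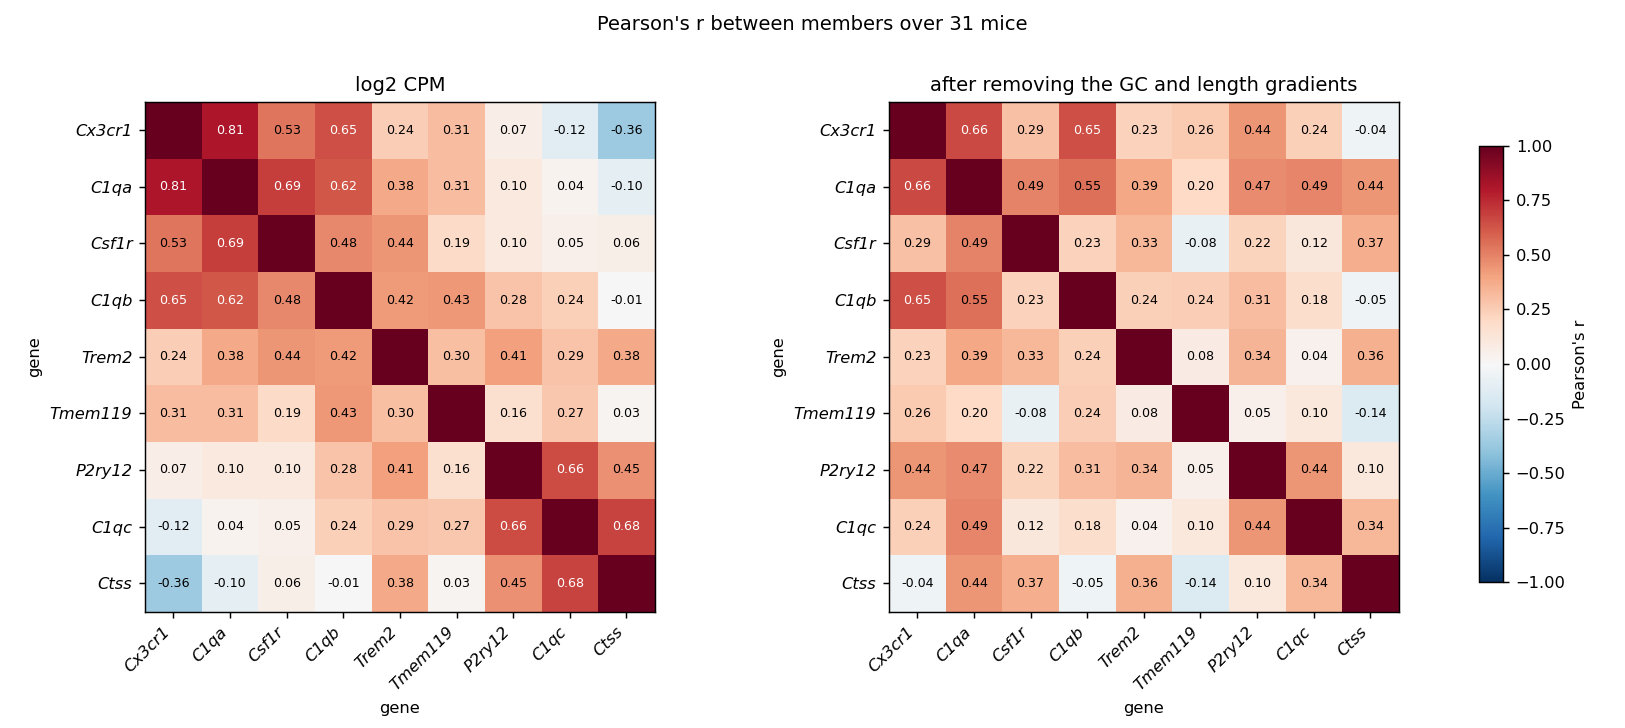
Pearson's r between members over 31 mice, from log2 CPM (left) and after the GC and length gradients were removed (right), red for positive and blue for negative r, with genes in the same order in both panels. On the left Cx3cr1, C1qa, Csf1r and C1qb form a red block (0.48 to 0.81) apart from P2ry12, C1qc and Ctss (0.45 to 0.68), and on the right the pair of C1qa and C1qc is at 0.49.

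The genes whose pattern over the 31 mice was most like the mean standardized log2 CPM of the members were Smdt1 (r = 0.85), Rps9 (0.83), Ndufs4 (0.82), Rps27a, Rpl37a, Rcan2, mt-Co3, Snx5, Rpl26 and Rplp1 (0.78). These encode ribosomal proteins (Rps9, Rps27a, Rpl37a, Rpl26 and Rplp1), mitochondrial proteins (Smdt1, Ndufs4 and mt-Co3) and others, and none is in the list of 30 other microglial genes. Of the 100 genes most like the mean, 2 were in that list, and after the gradients were removed 2 of the 10 genes remained among the first 10. The single most correlated gene was Sumo3 for Cx3cr1 (r = 0.88), Atp5k for C1qa (0.87), Exosc5 for Csf1r (0.75), Eif3h for C1qb (0.78), G6pdx for Tmem119 (0.66), Naxe for Trem2 (0.67), Ramp1 for P2ry12 (0.76) and Tpt1 for both Ctss (0.81) and C1qc (0.79).

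The wider microglial list of 30 genes was tested in full. Its mean standardized level had r = 0.80 with that of the members over the 31 mice, which share libraries and depth. This r is between averages of many genes. Single genes of the list had r from -0.29 to 0.74 with the member mean (median 0.27, 28 of 30 positive). The 95th percentile over all genes was 0.46. The median log2 genotype difference of the list was 0.03 over both lines. There 0 of 30 genes had an unadjusted p under 0.005, against 0.293% of all genes. Mertk, a receptor for engulfing dying cells and synapses that astrocytes also express, was the most abundant of the 30, with means of 37.6 CPM in WT and 45.2 CPM in CYFIP1 OE mice, and had the smallest p over both lines (log2 fold change 0.27, unadjusted p 0.00948, adjusted p 0.999). In line 3 Mertk was the 1 gene of the 30 under 0.005, against 0.93% of all genes. Its log2 fold change there was 0.42 (unadjusted p 0.00353, adjusted p 0.514 in edgeR).

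Of 43 other complement genes 25 passed the filter, and none had an unadjusted p under 0.005 in any of the 6 comparisons in edgeR. The share of all genes was 0.293% to 0.93% in these comparisons. C7, C8b and Cfd had no read in any mouse, which allows a level of up to 0.303 to 0.570 CPM per mouse (3 counts, counting error only), and C3, the central component downstream of C1q, was under the filter, with at most 40 reads in a mouse. Clu, a secreted inhibitor of the terminal pathway, had 239 ± 45.6 CPM in WT and 250 ± 76.7 CPM in CYFIP1 OE mice. The mean of the complement list had r = -0.43 with the member mean, and its single genes had r from -0.60 to 0.55 (9 of 25 positive). Csmd3, a membrane protein with complement control domains that neurons express, had the smallest p, with a log2 fold change of 0.22 (unadjusted p 0.0233, adjusted p 0.999).

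Among 17 ligands and partners of the members, 15 passed the filter. None had an unadjusted p under 0.005 in any comparison in edgeR, against 0.293% to 0.93% of all genes. Cst3, which encodes the cathepsin inhibitor cystatin C, had 919 ± 184 CPM in WT and 961 ± 212 CPM in CYFIP1 OE mice, and Apoe, a ligand of TREM2, had 538 ± 99.4 and 603 ± 182 CPM. Csf1, a ligand of CSF1R, had 5.13 ± 2.84 CPM in WT and 3.73 ± 1.33 CPM in CYFIP1 OE mice, and its log2 fold change was -0.46 (unadjusted p 0.0581, adjusted p 0.999).

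Genes that microglia switch on in disease or injury gave no call. Of 16 disease-associated genes 13 were tested and none was under 0.005 in any comparison, against 0.293% to 0.93% of all genes. Their median log2 genotype difference was 0.04 over both lines. Clec7a, Cst7 and Itgax, 3 defining genes of that state, were under the filter. Of 11 cytokine and early response genes 2 passed (Nfkbiz and Tlr4), and Il1b had at most 2 reads, Tnf at most 4 and Il6 at most 1 read in a mouse.

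Markers of other cells were read beside the members. Of 7 border macrophage markers 3 passed the filter, and their summed level was 3.94 to 10.9 CPM in WT and 3.40 to 11.6 CPM in CYFIP1 OE mice, with Cd163, Lyve1, Pf4 and Cd209f under the filter. Of 11 blood and infiltrating cell markers 6 passed, with a sum of 254 to 649 CPM in WT and 209 to 842 CPM in CYFIP1 OE mice, mostly haemoglobin. Their mean had r = -0.26 with the member mean. As list means, the striatal markers had r = 0.56 with the member mean, the 8 myelin markers 0.53 and the 7 astrocyte markers 0.12. The 7 neuronal markers had -0.39 and the 5 markers of BLA principal neurons -0.44. Single genes had r from 0.48 to 0.63 (striatal), 0.38 to 0.59 (myelin) and -0.32 to 0.45 (astrocyte). The neuronal markers ranged from -0.70 to 0.45, 3 of 7 positive, and those of BLA principal neurons from -0.52 to -0.14. The summed myelin level was 1498 to 9085 CPM in WT and 1160 to 5295 CPM in CYFIP1 OE mice. The part of these markers in the member levels was not tested beyond the fits that hold myelin and striatal levels as covariates. In these fits 0 of 9 members were under 0.005 in any of the 6 comparisons, beside 45 to 161 of 17428 genes.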

How the data were processed

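QuantSeq libraries from the BLA of 31 mice were analysed. Reads were mapped to GRCm38 with STAR and quantified with Salmon by the authors, who deposited expected counts (estimated counts, not normalized) for 48709 genes per mouse. Versions, and whether counting used strand, are not given in the sources used here. GENCODE M21 symbols matched 48349 identifiers. Counts were rounded, and the filter kept genes that reached 10 reads in 20% of mice or more. Genotype, sex and line were tested with edgeR 4.0.16 (TMM, quasi-likelihood F test, two-sided, Benjamini-Hochberg over 17428 genes), in R 4.3.3, with 1 model of genotype, sex and line and 1 of line by genotype and sex. DESeq2 1.42.0 and sva 3.50.0 served as alternatives. Log2 CPM used a prior count of 2, and correlations had two-sided permutation tests (100000 resamples, smallest p 1e-05). GC content and length came from 1 GENCODE transcript per gene, the longest principal one, and gradients from genes with at least 10 CPM on average. Steps were tested on simulated data. Each mouse was 1 replicate, with groups from the labels.

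The members and the wider lists were chosen with earlier results of these data known. Named genes were all members and, of each list, genes under 0.005, else those with the smallest p or highest level. Not all of these are printed. The gradients were added after seeing the data. Total counts of 5286708 to 8685308 per mouse limit precision most for Trem2 and the complement genes with few reads.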

Additional observations from a re-analysis of the deposited data

Results flagged for a closer look

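In CYFIP1 OE mice of line 3, the highest mouse stood apart from the other 7 for Cx3cr1 (150 CPM, next highest 82.1 CPM) and for C1qa (51.6 CPM, next highest 29.6 CPM), both times CYFIP1 OE line 3 mouse 1. In WT mice of line 1, mouse 4 stood apart for C1qc (41.5 CPM, next highest 29.5 CPM). Chance alone would set apart about 1 group in 20, and 3 of 36 combinations of gene and group did so here.

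The genotype difference of line 3 minus that of line 1 had an unadjusted p under 0.05 for Csf1r (0.47 on the log2 scale, adjusted p 0.550) and for C1qa (0.56, adjusted p 0.605), where 8.1% of all genes had such a p. C1qa lost it without CYFIP1 OE line 3 mouse 1 (0.40, unadjusted p 0.0993) and Csf1r did not (0.39, unadjusted p 0.0291). The cause was not tested.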

How the results depend on the processing

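The number of members under 0.005 stayed 0 in every comparison and setting except over both lines, where it was 1 (Tmem119) without the mouse of connectivity Z under -2 and ranged from 0 to 1 when single mice were left out, and for the interaction, where it ranged from 0 to 1 (Csf1r). Tmem119 was under 0.005 in 8 of the 31 fits that left out 1 mouse. Apart from the fit without CYFIP1 OE line 3 mouse 1 (57 of 17719 genes), counts over all genes are not given here for those fits over both lines. The log2 difference of Tmem119 ranged from 0.40 to 0.54 in the 31 fits and from 0.30 (5 surrogate variables) to 0.52 in the other settings. The median r of the C1q pairs was 0.57 in line 1 and -0.16 in line 3, and of the 10 genes most like the members 6 were shared after sex, line and genotype were removed and 2 after the gradients. Of 1341 values of single members under other settings, 1207 kept direction and side of the threshold, 124 changed sign and 10 came under 0.005. The sign changes were of differences under no threshold, and the cause was not tested.

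With 5 surrogate variables the sign turned over both lines for Csf1r (-0.13), C1qb (-0.20), Ctss (0.074) and Cx3cr1 (-0.00047), by sex for Csf1r (-0.056), in line 1 for C1qc (0.026), C1qb (-0.0031) and Ctss (0.11), in line 3 for Csf1r (-0.059), C1qc (-0.13), C1qb (-0.45) and Cx3cr1 (-0.062), in the interaction for Trem2 (-0.38), C1qc (-0.15), Ctss (-0.066), Cx3cr1 (-0.11) and Tmem119 (-0.0056), and between WT lines for Trem2 (0.068), C1qc (0.20), C1qb (0.24), Cx3cr1 (0.17) and Tmem119 (0.055). With myelin and striatal levels it turned over both lines for P2ry12 (0.078), C1qc (0.034) and Ctss (0.042), by sex for Csf1r (-0.016), in line 1 for C1qc (0.11) and Ctss (0.092), in line 3 for C1qc (-0.039) and Ctss (-0.0047), in the interaction for Trem2 (-0.065), C1qc (-0.15), Ctss (-0.097) and Tmem119 (-0.14), and between WT lines for C1qc (0.12) and Ctss (0.0024). With the gradients, chosen after seeing the data, it turned over both lines for Csf1r (-0.076), P2ry12 (0.023) and C1qb (-0.13), by sex for Trem2 (-0.056), P2ry12 (-0.014), C1qc (-0.083) and Ctss (-0.0083), for C1qb in line 1 (-0.11) and line 3 (-0.14), and between WT lines for Cx3cr1 (0.022).

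Without the mouse of Z under -2 it turned over both lines for Csf1r (-0.046), P2ry12 (0.026), C1qc (0.022) and C1qb (-0.020), and in line 3 for P2ry12 (0.024) and C1qb (-0.066). With age as a covariate it turned for C1qc over both lines (0.017), P2ry12 in line 1 (-0.080) and, in the interaction, P2ry12 (0.0096) and Tmem119 (-0.039), and without mice aged 77 days for C1qc (0.024) and Ctss (0.011) over both lines, P2ry12 in line 1 (-0.088) and, in the interaction, P2ry12 (0.026) and Tmem119 (-0.023). In line 1 alone C1qb was at -0.0054, and without the prefix of CYFIP1 OE line 3 mouse 1 C1qb in line 3 was at -0.11 and Cx3cr1 between WT lines at 0.010. When single mice were left out, ranges that crossed 0 were, over both lines, C1qb -0.083 to 0.067, C1qc -0.10 to 0.022, Csf1r -0.046 to 0.052 and P2ry12 -0.090 to 0.054, by sex, C1qa -0.020 to 0.14, Csf1r -0.012 to 0.083 and Cx3cr1 -0.023 to 0.13, and in the interaction, C1qb -0.10 to 0.24, P2ry12 -0.21 to 0.040, Tmem119 -0.14 to 0.15 and Trem2 -0.033 to 0.32.

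The number of all genes under 0.005 moved most without the filter on low counts, from 51 to 366 over both lines and from 147 to 591 for the interaction. Without the mouse of Z under -2 the interaction count was 348. Over both lines it was also 81 with DESeq2, 83 with myelin and striatal levels, 107 with 5 surrogate variables and 109 with name prefix as a term. No paired analysis was possible because the mouse numbers name animals within a name prefix and pair no mice across groups. With name prefix as a term, the difference over both lines was 0.50 for Tmem119 (unadjusted p 0.0562) and 0.24 for Csf1r (unadjusted p 0.0466). For line 1 this fit had only 1 mouse of each genotype within the same name prefix.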
